A study of Arabidopsis thaliana with 4 samples.

Results

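SWEET proteins are a family of membrane transporters that let sugars pass down their concentration gradient, in or out of a cell or an organelle. In Arabidopsis thaliana some members carry glucose or fructose, some carry sucrose, and some sit in the vacuole membrane rather than the plasma membrane. In leaves some members release sucrose before it is loaded into the phloem, and some vacuolar members affect how much fructose stays in the vacuole. The 5 genes described here are SWEET1, SWEET4, SWEET13, SWEET17 and SAG29, a gene found as a marker of leaf senescence and also named SWEET15. They are 5 of the 16 SWEET genes, and of 13286 genes in all, that had a probe set assigned to 1 gene and matched to the gene table. Each was read by 1 probe set (260876_at, 257271_at, 248467_at, 245524_at and 245982_at in that order), and none of these IDs carries the mark that the array's maker gives to probes shared between genes.

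The arrays compared wild-type Arabidopsis with the lwd1 lwd2 double mutant, which carries mutations in LWD1 and LWD2, genes for a pair of WD-repeat proteins of the circadian clock. Above-ground parts were taken on day 31 of growth in cycles of 12 h light and 12 h dark, and RNA from 2 biological replicates of each genotype was hybridised to Affymetrix GeneChips, 4 in all. The harvest ran from 5 to 9 h after dawn, so a shifted daily rhythm and a changed level cannot be told apart. Neither the accession of the plants nor the kind of mutant alleles is stated in the labels.

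The genes were picked because they passed the test of mutant against wild type in an earlier look at these same arrays. The contrast therefore describes them and tests nothing about them, and no p-value below supports their difference. In that test, limma's moderated test on log2(signal + 16) with Benjamini-Hochberg adjustment, 5.57% of the 13647 tested probe sets had an adjusted p under 0.05. The members' adjusted p-values lay between 0.0011 for SWEET13 and 0.0465 for SWEET1. The nearest SWEET gene outside was SWEET2, at an adjusted p of 0.0514 and a log2 difference of −0.94, which in size exceeds those of SWEET1 and SWEET17. Differences are mutant minus wild type throughout.

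SWEET1, SWEET4, SWEET13, SWEET17 and SAG29 separated the genotypes on all arrays, as 51.5% of tested probe sets did. Of the 5, 4 were lower in the mutant, from 1.79-fold for SWEET17 through 2.54-fold for SWEET4 and 3.94-fold for SWEET13 to 4.10-fold for SAG29, and SWEET1 was 1.80-fold higher. These folds are on the log2(signal + 16) scale, which understates those of dim genes. Without the filter on dim probe sets SWEET1, SWEET4 and SWEET17 would not have been picked (adjusted p = 0.133, 0.116 and 0.0867, limma), while SWEET13 and SAG29 would. In bulk tissue, fewer cells that express a gene and less RNA per cell cannot be told apart.

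**Figure D1:**
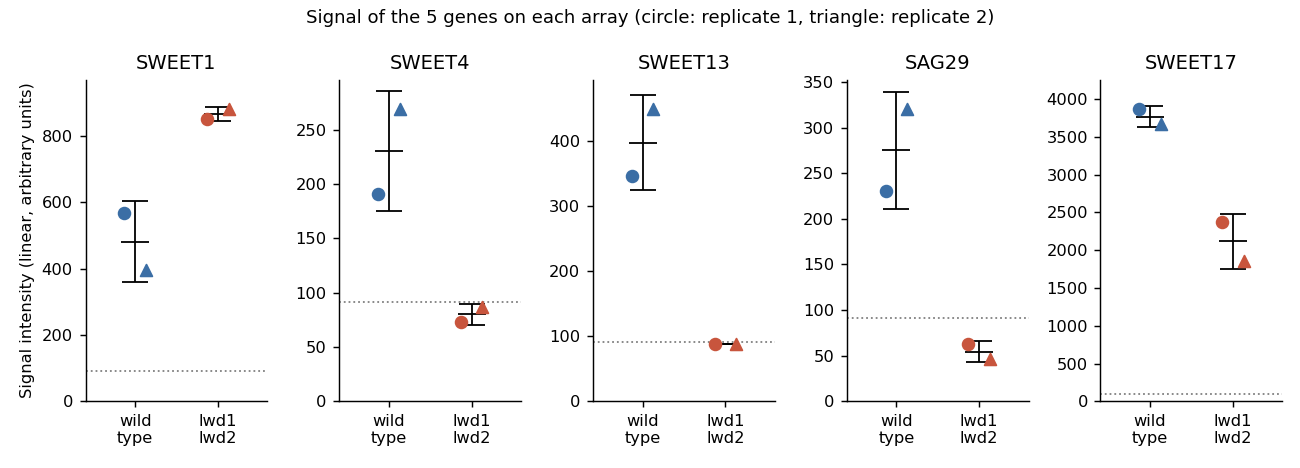
Signal intensity (linear, arbitrary units, each panel with its own axis from 0) of the 5 genes on the wild-type (blue) and lwd1 lwd2 (red) arrays, with circles for replicate 1, triangles for replicate 2, and black bars for the mean and SD of 2 arrays. The dotted line is the signal of 91.5 at the cutoff of the filter on dim probe sets, below which the mutant means of SWEET4, SWEET13 and SAG29 lie.

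Among the sucrose carriers of the plasma membrane, SWEET13, which can also transport gibberellins, had a signal of 346 and 449 in wild-type replicates 1 and 2, against 87.7 and 88.5 in lwd1 lwd2 replicates 1 and 2 (values keep this order below). Both mutant arrays lay far below both wild-type arrays, and the mutant pair was almost identical while the wild-type pair was spread more widely. The means were 397 ± 73.0 and 88.1 ± 0.525 (SD, n = 2), a ratio of 4.51 between mean signals. On the log2 scale the difference was −1.98 ± 0.24 (SE), and the 4 differences between single mutant and wild-type arrays ran from −2.16 to −1.79.

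SAG29, a sucrose carrier whose transcript accumulates in senescing leaves and which helps to feed the developing seed, had a wild-type signal of 230 and 320 against 62.7 and 46.4 in lwd1 lwd2. The genotypes did not overlap, and each differed within itself by much less than between genotypes. The wild-type mean was 275 ± 63.9 and the lwd1 lwd2 mean 54.6 ± 11.5 (SD, n = 2), which is a ratio of 5.04. The log2 difference was −2.04 ± 0.28 (SE), the 37th lowest of all tested probe sets, and that of SWEET13 was the 43rd lowest.

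SWEET4, a hexose carrier of the plasma membrane active in and around veins, had a wild-type signal of 191 and 269 against 73.2 and 86.8 in lwd1 lwd2. Both mutant values were low, and the wild-type arrays again differed more from each other than the mutant arrays. The means were 230 ± 55.1 and 80.0 ± 9.63 (SD, n = 2), and the log2 difference was −1.34 ± 0.27 (SE).

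For SWEET13, SAG29 and SWEET4 the mutant mean lay under the filter's cutoff, a signal of about 91.5, and the wild-type mean above it. These genes entered the test through wild type alone, and the size of their differences depends on the offset of 16 added before the logarithm. With an offset of 1 the log2 differences were −2.15, −2.31 and −1.50 for SWEET13, SAG29 and SWEET4, and with an offset of 64 they were −1.59, −1.51 and −1.02. Which of SWEET13 and SAG29 differed more therefore depends on the offset. No detection calls were used here, so none of the 3 mutant levels could be called above or below background.

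SWEET17, which carries fructose across the vacuole membrane, was the brightest of the 5 probe sets in both genotypes, although signals of different probe sets do not rank transcript levels. The wild-type arrays read 3868 and 3666, and the lwd1 lwd2 arrays 2372 and 1861. Here the wild-type arrays were close together and the mutant arrays further apart, the reverse of SWEET13 and SWEET4. The means were 3767 ± 143 and 2116 ± 361 (SD, n = 2), a ratio of 1.78, and the log2 difference was −0.84 ± 0.18 (SE). The differences between single arrays ran from −1.05 to −0.62, and the offset hardly mattered at this signal (−0.84 with 1 and −0.82 with 64).

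SWEET1, a glucose carrier of the plasma membrane, had a wild-type signal of 568 and 396 against 850 and 882 in lwd1 lwd2. Both mutant values exceeded both wild-type values, and the wild-type arrays were spread more widely than the mutant arrays. The means were 482 ± 122 and 866 ± 22.1 (SD, n = 2), a ratio of 1.80. The log2 difference was 0.85 ± 0.21 (SE), with single-array differences from 0.57 to 1.12. Leaving out wild-type replicate 2 gave 0.60 and leaving out wild-type replicate 1 gave 1.10, which moves it by about its replicate spread.

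Wild-type replicate 2 was the higher of the wild-type arrays for SWEET4, SWEET13 and SAG29 and the lower for SWEET1 and SWEET17. The differences between same-numbered arrays were −1.80 and −2.15 for SWEET13, −1.64 and −2.43 for SAG29, −1.21 and −1.47 for SWEET4, −0.70 and −0.97 for SWEET17, and 0.57 and 1.12 for SWEET1 in replicates 1 and 2. Each was larger in size in replicate 2. The replicate numbers are names from the labels, and the labels do not say whether they mark shared plantings.

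**Figure D2:**
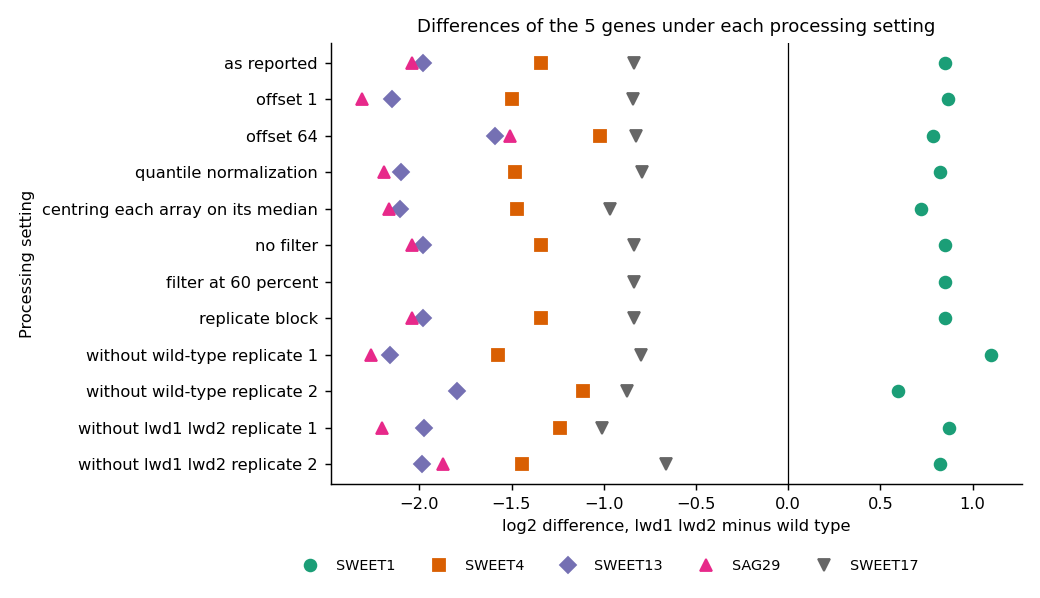
Log2 difference (lwd1 lwd2 minus wild type) of the 5 genes, 1 symbol per gene, under the reported processing and the alternatives on the vertical axis. The robust variance prior and the fit without an intensity trend leave the differences unchanged and are not drawn. SWEET1 stays between 0.60 and 1.10 and the other 4 genes stay below 0, while an offset of 64 brings SAG29 from −2.04 to −1.51; a missing symbol means that the filter left the gene out.

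The rest of the family gave differences of both signs. Besides the 5 members, 11 family genes had a probe set assigned to 1 gene, and 4 of them passed the filter, SWEET2, SWEET10, SWEET11 and SWEET16. None of these 4 passed the test, against a background of 5.57%. That follows from the choice of the members, which were picked because they passed, so nothing is read from it. By an unadjusted p below 0.05, which 19.9% of all tested probe sets had, SWEET2 alone of the 4 passed, and SWEET12 was not analysed here.

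SWEET2, a vacuolar sugar carrier known from roots, had a wild-type signal of 479 and 782, and of 313 on each lwd1 lwd2 array. Its genotypes did not overlap, and its log2 difference was −0.94 ± 0.24 (SE, limma adjusted p = 0.0514). The result leaned on wild-type replicate 2, without which the difference was −0.59 (adjusted p = 0.28), while without wild-type replicate 1 it was −1.28 (adjusted p = 0.0036). Over all settings SWEET2 had an adjusted p between 0.0036 and 0.28 and passed in 4 of 14, the reported setting not among those 4.

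SWEET11, the carrier that with SWEET12 exports sucrose toward the phloem in leaves, had a wild-type signal of 4143 and 4846 against 5073 and 6022 in lwd1 lwd2. Its genotypes did not overlap either, but the log2 difference was small, 0.30 ± 0.18 (SE, limma adjusted p = 0.38). It was positive where that of SWEET13, another sucrose carrier, was negative, and the difference between these genes was not tested.

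SWEET16, a vacuolar carrier related to SWEET17, had a wild-type signal of 183 and 228 against 170 and 265 in lwd1 lwd2, which overlap, with a log2 difference of 0.05 ± 0.27 (SE). SWEET10, a sucrose carrier, had a wild-type signal of 193 and 36.8 against 111 and 134 in lwd1 lwd2. The wild-type arrays of SWEET10 lay on either side of the mutant arrays, and its log2 difference of 0.39 ± 0.51 (SE) turned to −0.60 without wild-type replicate 2. In the gene table SWEET10 is the gene next to SWEET13.

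Below the filter lay 7 SWEET genes with signals between 9.98 and 97.9, and their values had no test. SWEET8, needed for pollen wall formation, had a wild-type signal of 55.5 and 15.4 against 88.8 and 73.9 in lwd1 lwd2, with a log2 difference of 1.03. SWEET14, which like SWEET13 can transport gibberellins, had a wild-type signal of 38.5 and 27.0 against 66.4 and 77.5 in lwd1 lwd2, with a log2 difference of 0.86. SWEET3 stood at 0.91, with 65.5 and 21.5 in wild type against 78.5 and 97.9 in lwd1 lwd2. SWEET6 stood at 0.92, with 47.2 and 9.98 in wild type against 42.8 and 84.4 in lwd1 lwd2, which overlap. SWEET9, a carrier of nectaries, stood at 0.04. AtVEX1, also named SWEET5 and known from pollen, stood at −0.52 and SWEET7 at −0.45. Of the 7, 5 had no overlap between the genotypes, and 12 of all 16 family genes had none, against 45.2% of the 22746 probe sets without the filter. The members were chosen for separating the genotypes, so nothing is read from that count.

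**Figure D3:**
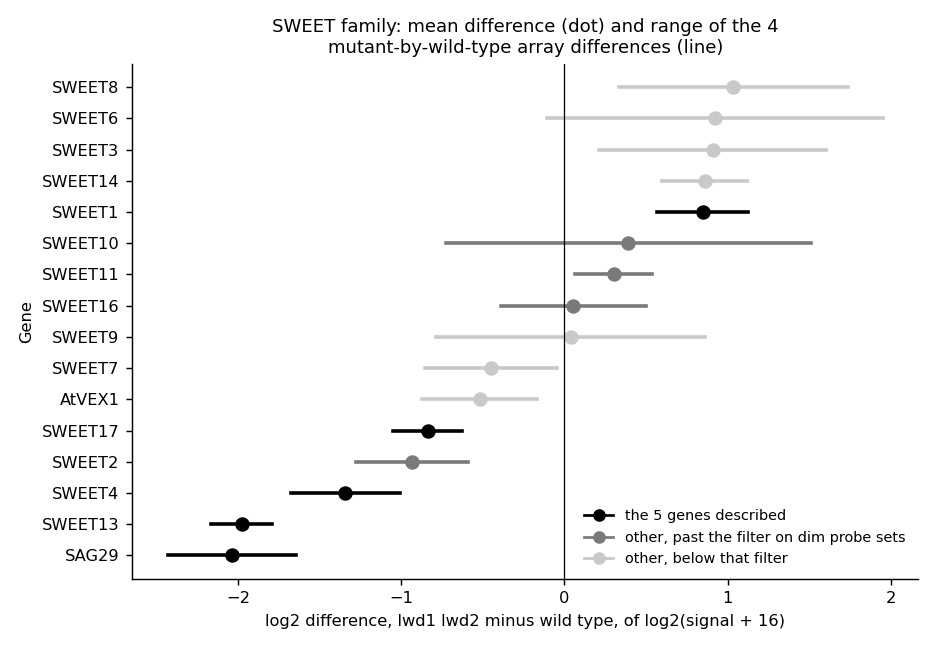
Log2 difference (lwd1 lwd2 minus wild type, horizontal axis) of the 16 SWEET genes with a probe set of their own, with dots for the mean of 2 arrays per genotype and lines for the range of the 4 differences between single arrays. SAG29 and SWEET13 lie lowest at −2.04 and −1.98, and lines that cross 0 belong to genes whose genotypes overlap.

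The sugar pathway around these carriers could be read only in small part, because 23 of 137 listed genes had a probe set assigned to them alone, and 16 of those passed the filter. Of the 16, 1 rose and 2 fell in the mutant, against backgrounds of 2.73% and 2.84% of all tested probe sets. Their median log2 difference was −0.08, against 0.05 over all tested probe sets. No plasma membrane sucrose transporter of the SUC family was among them, and those genes were not analysed here.

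Of 5 tested starch genes, 1 rose and 4 did not pass, with a median log2 difference of −0.22. PWD, the phosphoglucan water dikinase that opens starch granules for breakdown, rose from wild-type signals of 1524 and 1619 to 3425 and 4229 in lwd1 lwd2. The genotypes were far apart, with a log2 difference of 1.27 ± 0.18 (SE, limma adjusted p = 0.0025), and PWD passed in all 14 settings. APL3 and APL4, large subunits of the ADP-glucose pyrophosphorylase of starch synthesis, had log2 differences of −0.50 ± 0.21 and −0.22 ± 0.26 (SE). The branching enzyme SBE2.2 had one of −0.49 ± 0.18, and DPE1, a plastid glucanotransferase of starch breakdown, one of 0.26 ± 0.19.

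Of 3 tested genes of sucrose synthesis and cleavage, 1 fell. All 3 differences were negative, as were those of 6131 of all 13647 tested probe sets. The smallest in size was that of AT1G62660, −0.24 ± 0.20 (SE, limma adjusted p = 0.55), which was −0.03 without mutant replicate 1. AT2G35840, which was listed by its locus and has no symbol in the gene table, fell from 1821 and 2233 to 1006 and 1092. Its log2 difference was −0.93 ± 0.19 (SE, limma adjusted p = 0.016), with an adjusted p of 0.06 without wild-type replicate 2 and 0.054 without the filter, and 0.0044 to 0.06 over all settings. ATSPS4F, a sucrose-phosphate synthase, had a wild-type signal of 1779 and 2910 against 1390 and 1258 in lwd1 lwd2. Its genotypes did not overlap, but the log2 difference of −0.78 ± 0.23 (SE) did not pass (limma adjusted p = 0.083). With each array centred on its median the difference was −0.90 and passed (limma adjusted p = 0.046). It ran from −0.42 without wild-type replicate 2 to −1.13 without wild-type replicate 1.

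Of 4 tested vacuolar and other sugar transporters, 1 fell and 3 did not pass. SFP2, a sugar transporter-like gene, fell from 326 and 336 to 181 and 159, with a log2 difference of −0.90 ± 0.22 (SE, limma adjusted p = 0.039). It passed in 8 of 13 settings, with an adjusted p of 0.075 and 0.13 without wild-type replicates 1 and 2, 0.10 without mutant replicate 2, 0.137 without the filter, and 0.02 to 0.137 over all settings. SFP1, its close relative, had a log2 difference of −0.58 ± 0.23 (adjusted p = 0.19, and 0.038 without wild-type replicate 1). The vacuolar monosaccharide importers TMT1 and TMT2 had log2 differences of 0.36 ± 0.21 and 0.08 ± 0.20 (SE).

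In the remaining lists none of the tested genes passed. The kinase subunit AKINBETA1 and the transcription factor BZIP53, both of the response to low energy, had log2 differences of 0.54 ± 0.23 and 0.38 ± 0.18 (SE). AT5G61520, the 1 tested gene of the hexose carrier list, had one of 0.35 ± 0.25. SAG101, a lipase-like protein of senescence and defence and the 1 tested gene of the leaf senescence list, had a wild-type signal of 90.2 and 113 against 131 and 83.9 in lwd1 lwd2. These overlap, with a log2 difference of 0.05 ± 0.30, beside −2.04 for SAG29, and the difference between the genes was not tested. WRKY53 and WRKY6 of the same list lay below the filter and had no test. Their log2 differences had opposite signs, 1.37 for WRKY53 and −1.19 for WRKY6.

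**Figure D4:**
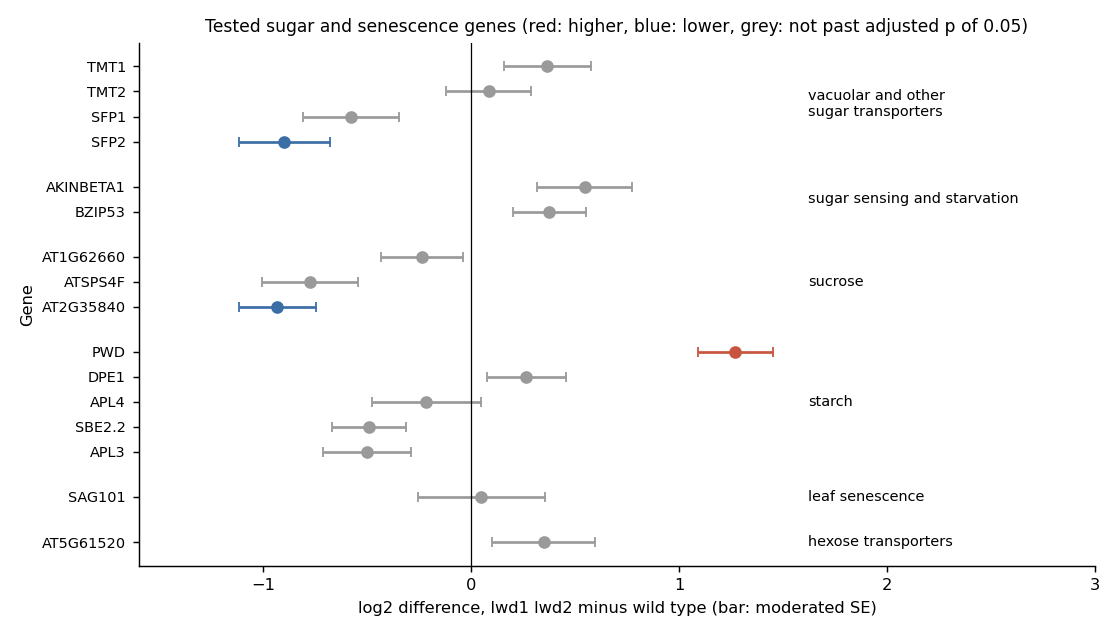
Log2 difference (lwd1 lwd2 minus wild type, horizontal axis) with its moderated SE for the 16 tested genes of the sugar and senescence lists, grouped by list. PWD lies highest at 1.27, and the genes below 0 that passed are AT2G35840 at −0.93 and SFP2 at −0.90.

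The genes with the most similar pattern were found by the Euclidean distance between log2 values over the 4 arrays, each gene centred on its own mean, among 7368 other tested probe sets with 1 gene. With 4 arrays this measure mostly reads the genotype difference and the gap between replicates, and it describes only these arrays. The members were picked by that genotype difference, so nothing is read from how near they lie to each other. SWEET13 and SAG29 shared the same nearest gene, AT5G35970, at distances of 0.15 and 0.22. AT5G35970 had a wild-type signal of 3329 and 4685 against 1097 and 1016 in lwd1 lwd2.

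SWEET13 was the 3rd nearest of all genes to SAG29, at 0.26, and SAG29 the 5th nearest to SWEET13. After AT5G35970, SWEET13 was closest to AT1G57590 (0.18) and AT1G64500 (0.21), and SAG29 to AT5G54130 (0.23). SWEET4 was the 26th nearest to SWEET13 (0.65) and the 29th to SAG29 (0.79). Seen from SWEET4, however, SWEET13 was the 144th nearest and SAG29 the 261st. The nearest genes to SWEET4 were AT3G56290 (0.10), AT1G33110 (0.11) and AT5G42760 (0.16). SWEET17 was nearest to AT3G15780 (0.06), AT3G13062 (0.10) and AT1G18360 (0.10), and SWEET1 to AT3G14740 (0.03), AT2G42900 (0.09) and AT3G53190 (0.10). None of these loci has a symbol in the gene table.

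None of the tested genes beside the members in the genome passed. Of 20 nearest protein-coding neighbours, 2 on each side of every member, 6 were tested, SWEET10 among them, with 0 calls by limma, against a background of 5.57%. None of the 6 had an unadjusted p under 0.05, against 19.9% of all tested probe sets. So few tested genes cannot set either count apart from its background, and nothing is read from these counts. DI21, next to SWEET17, had a log2 difference of 0.05 ± 0.32 (SE), and AT4G15930, on its other side, one of −0.18 ± 0.18. The annotated spans of SWEET1 and its neighbour SCL1 overlap in the gene table, and whether the SWEET1 probe set also reads SCL1 was not tested.

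Over tested probe sets, the 2 arrays of a genotype correlated at r = 0.972 for wild type and for lwd1 lwd2. Arrays of different genotypes correlated at r = 0.932 to 0.947. Median signals over all probe sets except the controls lay between 162 and 181. The 6 nuclear photosynthesis genes RCA, LHCB4.1, LHCB4.2, LHCB4.3, PSBY and PSBW, looked up after the data were seen to check the labelled green tissue, had signals between 582 and 29534 on all arrays. Of the marker lists, 1 of 7 phloem genes (SWEET11), 1 of 7 flower and anther genes (AT5G07230) and none of 5 xylem genes had a probe set of their own. AT5G07230 had a wild-type signal of 156 and 33.1 against 300 and 40.9 in lwd1 lwd2, higher in replicate 1 of each genotype, and its part in the members' differences was not tested. LWD1 and LWD2 were not analysed here, so the labels were not checked against the mutated genes.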

How the data were processed

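Per the labels' protocols, cDNA made from total RNA was transcribed in vitro into biotin-labelled RNA and hybridised to Affymetrix GeneChips. The authors deposited 1 linear signal intensity per probe set and array, and no source used here names the software. The mean of the deposited intensity values, with 2% trimmed at each end, was about 500.05 on every array, so a change in total mRNA cannot be seen. Here values were taken as log2(intensity + 16), on which fold changes of dim genes are understated. The 64 control probe sets and the dimmest 40% by mean were left out, leaving 13647 of 22810. They were fitted with limma 3.58.1 in R 4.3.3 (genotype only, intensity trend, 2 residual degrees of freedom), and figures used matplotlib 3.10.9. The fit was tested on simulated data. The number of arrays limits the precision.

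Names came from the platform's probe table, updated by gene ID through the TAIR10.1 table (13436 of 13513 probe sets with 1 gene matched). No sequences or coordinates are shown. The members, gene lists and tests were chosen with earlier results of these data known. Named genes were the members, all other SWEET genes, up to 4 called genes per list (or the 1 with the largest difference where none was called) and the 3 genes most similar to each member. Other list genes were named after their values were seen. Same-numbered arrays' deviations from their genotype means correlated at r = 0.093.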

Additional observations from a re-analysis of the deposited data

How the results depend on the processing

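All 5 members kept their direction in every alternative that tested them, which their lack of overlap nearly fixes. Leaving out 1 array gave log2 differences of −2.16 to −1.80 for SWEET13, −1.57 to −1.11 for SWEET4, −1.01 to −0.66 for SWEET17 and 0.60 to 1.10 for SWEET1. For SAG29 the range was −2.26 to −1.87, which lacks the fit without wild-type replicate 2, where the filter removed SAG29. An offset of 64 brought SAG29 to −1.51, SWEET13 to −1.59 and SWEET4 to −1.02, since it compresses dim signals. The filter at 60% left out SWEET4, SWEET13 and SAG29, and without wild-type replicate 2 SAG29 was left out. Centring each array on its median moved all differences by −0.13 (SWEET1 then stood at 0.72) and turned the 372 higher and 388 lower calls to 257 and 572. Without the filter 258 of 22746 probe sets passed instead of 760 of 13647, and leaving out 1 array gave 561 to 1095; the cause was not tested. Among other SWEET genes, none was called higher in any setting. The number called lower was 1 (SWEET2) with centring, with the 60% filter, with a robust variance prior and without wild-type replicate 1, and it ran from 0 to 1 when 1 array was left out. Of the pathway genes, the number that fell was 0 without the filter, 1 with the 60% filter, which leaves out SFP2, and 0 to 3 when 1 array was left out. With the replicate number as a block, 676 probe sets passed, 1 pathway gene fell (SFP2 had an adjusted p of 0.06, limma) and SWEET1 was at 0.06. SWEET1 also missed the threshold with quantile normalization (0.067), centring (0.079), no intensity trend (0.078), no filter (0.133) and without wild-type replicate 2 (0.198), mutant replicate 1 (0.072) or mutant replicate 2 (0.09). SWEET17 missed it without mutant replicate 2 (0.109), with no intensity trend (0.063) and with no filter (0.0867), and SWEET4 without wild-type replicate 2 (0.111) and with no filter (0.116), all limma adjusted p-values that describe the choice of the genes. The labels do not say that the numbers mark shared plants or days.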
